A study of Mus musculus with 2 samples.

Results

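CD8 T cells that carried transcripts of both Tcf7 and Pdcd1 were taken from 2 libraries of single T cells from a mouse melanoma model. A cell was included when it had at least 1 UMI (a counted mRNA molecule) of Cd3e, Cd8b1, Tcf7 and Pdcd1 and no UMI of Cd4, Foxp3, C1qa or Ifng, and when at most 2 of the 5 cycling genes Mki67, Top2a, Birc5, Cdk1 and Tpx2 were detected. The rule found 199 cells among 17390, 128 from the untreated library and 71 from the treated one. The cells were compared with CD8 cells that met the same limits and had Pdcd1 without Tcf7 (294 untreated and 1807 treated cells, called Tcf7-negative Pdcd1+ below) and with those that had Tcf7 without Pdcd1 (1890 and 410 cells, called Pdcd1-negative Tcf7+ below).

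Both libraries came from the syngeneic model labelled NILER, which was made from the Nras Q61R melanoma line NIL with ultraviolet exposure. One library is labelled untreated and the other treated with trametinib, a MEK inhibitor, plus BGB-283, a RAF inhibitor, and both are labelled day 5. Both libraries are labelled as T cells and were made with a droplet 3' kit. The labels give neither the number of animals nor how the T cells were purified. With 1 library per group there was no spread between animals and no test was possible, and treatment, library and batch cannot be told apart. Levels are in CPM, the UMIs of a gene per 1000000 UMIs summed over a group of cells, and intervals are exact 95% intervals that cover counting error only. A gene was called different when the CPM differed at least 1.5-fold, among genes that reached 50 UMIs and a level of 20 CPM in either group.

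Tcf7 encodes TCF-1, a transcription factor of naive, memory and stem-like T cells, and Pdcd1 encodes PD-1, an inhibitory receptor induced by antigen. In tumours and chronic infection, CD8 cells that hold both are known as stem-like or progenitor exhausted cells. They are known to renew themselves, to give rise to cells that lose TCF-1 and gain killing genes and further inhibitory receptors, and to be the cells that proliferate after PD-1 blockade.

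The chosen cells were deeper than their neighbours. Their median depth was 10608.5 (untreated) and 8989 (treated) UMIs per cell, against 9282.5 and 6750 in the Tcf7-negative Pdcd1+ cells and 6017 and 5866.5 in the Pdcd1-negative Tcf7+ cells. A larger share of them than of all droplets had high doublet scores. Scrublet, a method that scores each droplet against simulated pairs of cells, placed 23 of the 128 untreated cells (18.0%) and 25 of the 71 treated cells (35.2%) among the scores removed as highest, which held 4.38% and 4.82% of all droplets. Of the Tcf7-negative Pdcd1+ cells, 8 of 294 and 35 of 1807 were among them. A pair of T cells in 1 droplet would meet the rule without either cell having both transcripts. The part of such pairs was not tested beyond repeats without these droplets. Repeated were the share, the comparisons of the chosen cells between libraries and with each other group, and the count of intermediate levels. The split by Ccr7 and the search for genes above both groups, described below, were not repeated. Transcripts of other cell types reached 10 or more per 10000 UMIs in 10 untreated cells (7.81%) and 5 treated cells (7.04%). Of all cell barcodes, 35 occurred in both libraries, and 2 of the chosen cells had one of them.

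The share of these cells among CD8 cells in the untreated library was 3.49% (2.92 to 4.14, 128 of 3667), and in the treated library it was 1.57% (1.23 to 1.98, 71 of 4508). The rule used both genes, so these shares describe the groups. Among cells with Pdcd1, Tcf7 was found in 30.3% (26.0 to 35.0, untreated) and 3.78% (2.96 to 4.75, treated). Among cells with Tcf7, 6.34% (5.32 to 7.50) and 14.8% (11.7 to 18.3) had Pdcd1. After each cell was thinned to 2000 UMIs and the rule was applied again, 30 of 2441 untreated (1.23%) and 10 of 2971 treated CD8 cells (0.337%) remained. Thinning left out the 34 untreated and 113 treated CD8 cells under that depth.

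In B cell and myeloid droplets without T cell transcripts, Tcf7 was detected in 5.58% (3.53 to 8.33, 22 of 394) of untreated and 2.92% (1.34 to 5.47, 9 of 308) of treated droplets, at median depths of 9881.5 and 4990 UMIs. The treated share of 3.78% therefore overlapped the level in cells that should lack Tcf7, and thinned to 2000 UMIs it was 0.967% (0.465 to 1.77) against 1.48% (0.405 to 3.75). The untreated share of 30.3% lay above its background, and so did the thinned share, 9.01% (6.16 to 12.6) against 3.43% (1.78 to 5.91). A Tcf7 UMI alone did not set treated cells apart from that background, so the other transcripts of the treated cells are described with this limit. Pdcd1 was detected in 4.06% (2.34 to 6.51) of the untreated and 2.27% (0.919 to 4.63) of the treated droplets of this kind. Among cells with Tcf7, the untreated Pdcd1 share of 6.34% (5.32 to 7.50) therefore overlapped its background, and the treated 14.8% lay above it. Thinned to 2000 UMIs, the untreated share was 3.80% (2.58 to 5.38) against 0.571% (0.0693 to 2.05), and these intervals did not overlap. The thinned treated share was 7.19% (3.50 to 12.8) against 1.85% (0.604 to 4.27), and these intervals overlapped.

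The 4 genes that stand for this cell state did not move together. Slamf6, a surface receptor of the SLAM family that marks progenitor exhausted cells, stood at 92.7 CPM (untreated) and 53.4 CPM (treated), against 21.7 and 4.76 CPM in the Tcf7-negative Pdcd1+ cells. That is 4.27-fold (3.17 to 5.81) and 11.2-fold (7.22 to 17.2) higher, although the gene did not pass the filter in the treated contrast. The Pdcd1-negative Tcf7+ cells had a similar level, 80.1 and 40.0 CPM, so Slamf6 did not set the cells apart from other CD8 cells with Tcf7, at 1.16-fold (0.965 to 1.38) and 1.33-fold (0.885 to 1.97). Gzmk, a granzyme also used as a marker of early exhausted cells, went against the label. It was at 28.5 and 26.7 CPM, which was 2.63-fold (1.90 to 3.72) and 2.72-fold (1.71 to 4.60) lower than the 75 and 72.5 CPM of the Tcf7-negative Pdcd1+ cells, and above the 2.95 and 10.4 CPM of the Pdcd1-negative Tcf7+ cells. Slamf6 was detected in 64 of 128 untreated and 19 of 71 treated cells (26.8%), and Gzmk in 15 (11.7%) and 15 (21.1%). Both were detected together in 11 and 4 cells, and neither in 60 (46.9%) and 41 (57.7%). In the non-T droplets the shares were 17.0% and 9.42% for Slamf6 and 0.254% and 0 for Gzmk. The cells are therefore called by their rule, Tcf7+ Pdcd1+, and not by a named state.

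**Figure D1:**
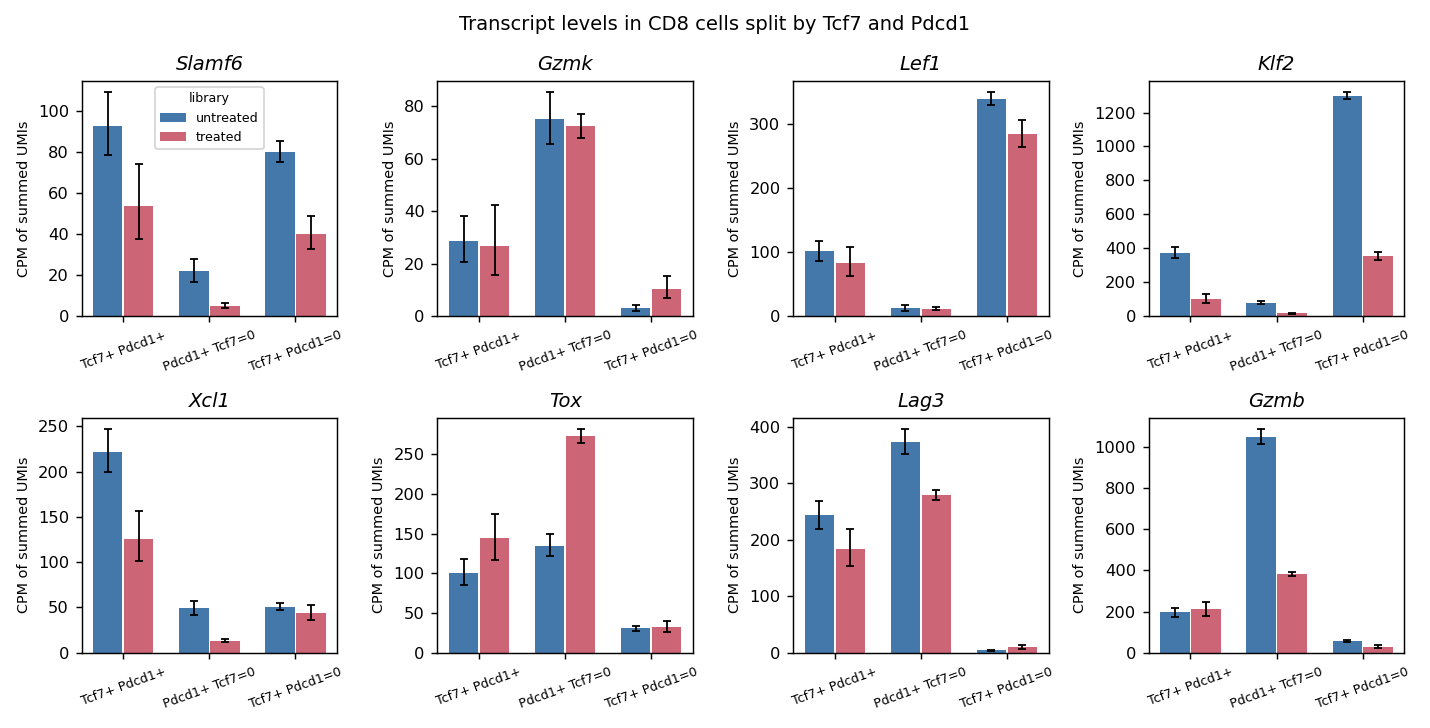
Level of 8 transcripts in CPM of summed UMIs (vertical axis, linear from 0) in Tcf7+ Pdcd1+ cells, Tcf7-negative Pdcd1+ cells and Pdcd1-negative Tcf7+ cells of the untreated (blue) and treated (red) library; bars are the level of a group of cells and error bars are exact 95% Poisson intervals of the count. Lef1, Klf2, Tox, Lag3 and Gzmb lay between the other groups in both libraries, Xcl1 lay above both at 222 and 126 CPM, and Gzmk was highest in the Tcf7-negative cells at 75 and 72.5 CPM.

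The cells were chosen by their UMIs of the rule's genes, and these values were low. Tcf7 had a median of 2 UMIs in both libraries, with a range of 1 to 10 in the untreated and 1 to 9 in the treated cells, and Pdcd1 a median of 4.5 and 2 UMIs. Exactly 1 Tcf7 UMI was seen in 45 untreated and 35 treated cells. In these cells Slamf6 was at 75.7 and 19.3 CPM and Lef1 at 71.3 and 74.0 CPM, and in the 83 and 36 cells with 2 or more Tcf7 UMIs Slamf6 was at 99.7 and 82.5 CPM and Lef1 at 113 and 90.8 CPM. Ccr7 in the treated library was at 83.6 CPM in the cells with 1 Tcf7 UMI and 569 CPM in those with more. Just outside the rule were 17 untreated and 16 treated cells with a single Ifng UMI, whose Slamf6 was at 105 and 25.9 CPM. A further 8 and 2 cells had exactly 3 cycling genes, with Slamf6 at 83.7 and 16.6 CPM.

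The cells differed among themselves in Ccr7, the chemokine receptor that guides T cells to lymph nodes. In the untreated library it ran from 0 to 57.7 per 10000 UMIs of a cell with a median of 3.54, and in the treated library from 0 to 35.9 with a median of 0. Ccr7 was at 10 or more per 10000 UMIs in 31.2% (23.4 to 40.0, 40 of 128) of the untreated and 11.3% (4.99 to 21.0, 8 of 71) of the treated Tcf7+ Pdcd1+ cells, and absent from 27 (21.1%) and 42 (59.2%). The Ccr7 level was chosen for this split after the values were seen. In the non-T droplets, some of which are of types known to express it, Ccr7 was detected in 14.2% and 33.4%. Gzmk was detected in 3 and 0 of the Ccr7-high cells. Tox, a factor of exhausted cells, was detected in 70 untreated (54.7%) and 37 treated cells (52.1%), and together with Slamf6 in 36 (28.1%) and 11 (15.5%). Lef1, a gene of naive and memory cells, was detected in 64 and 33 cells (46.5%). In the non-T droplets the shares were 1.02% and 1.62% for Tox and 2.28% and 0.974% for Lef1.

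**Figure D2:**
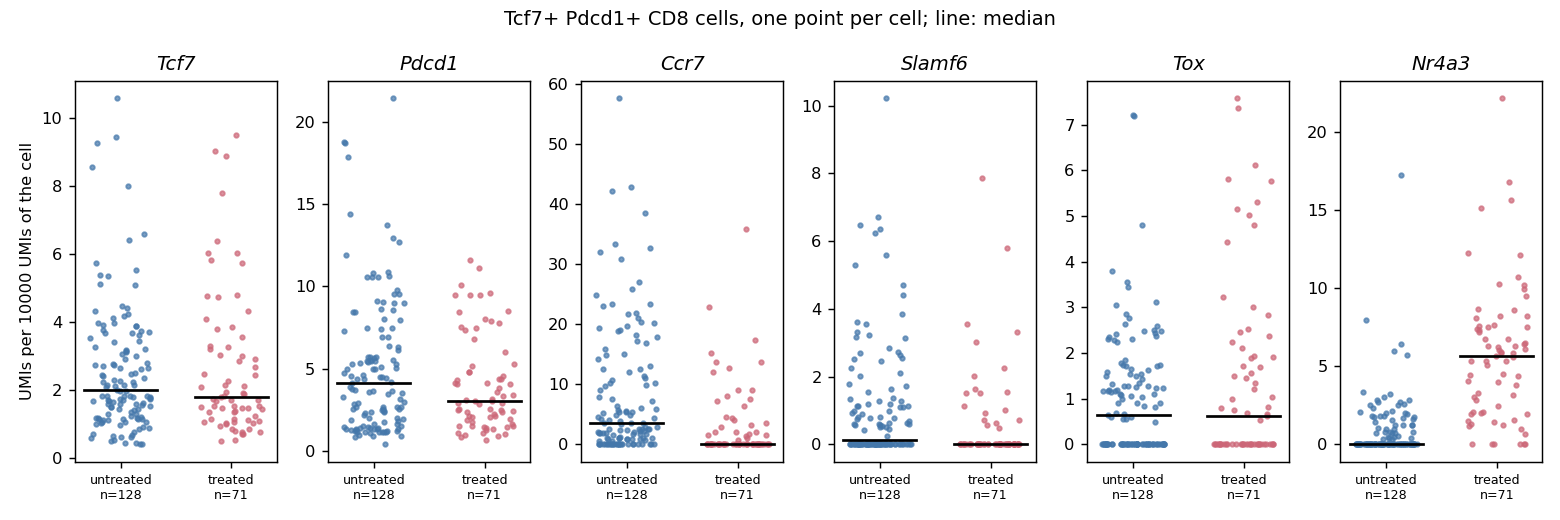
UMIs per 10000 UMIs of a cell (vertical axis, linear) for 6 genes in each Tcf7+ Pdcd1+ cell; every point is 1 cell and the black line is the median of the library. Nr4a3 had a median of 0 in untreated and 5.64 in treated cells, Ccr7 of 3.54 and 0, and Tox of 0.652 and 0.632; Tcf7 and Pdcd1 chose the cells.

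Within the untreated library, the Ccr7-high cells differed from the others in further genes. After droplets with transcripts of other cells were left out, 37 Ccr7-high and 81 other cells remained, with medians of 12353 and 8949 UMIs. Of 2251 genes compared, 145 (6.44%) were higher and 278 (12.4%) lower in the Ccr7-high cells. The 12 highest and 12 lowest by the interval bound nearest 1 are named. Cd83, an activation marker that dendritic cells also express, was at 184 and 23.5 CPM, a ratio of 7.82 (4.83 to 13.2). Cst3, a protease inhibitor abundant in dendritic and myeloid cells, was at 538 and 162 CPM, and the part of such cells in this split was not tested beyond the removal. Tbc1d4, a regulator of glucose transporter traffic, was at 135 and 15.7 CPM. Penk, the precursor of enkephalins, was at 216 and 34.7 CPM, Il1r2, a decoy receptor for interleukin-1, at 222 and 39.2 CPM, and Rgs16, a regulator of G protein signalling, at 435 and 131 CPM. The other highest genes were C2cd4b, Tg, Tff1, Serpine2, Fam46a and Eea1. Among the 12 lowest, Gzmb was at 48.5 and 310 CPM, Prf1 at 32.3 and 132 CPM, Ccl5 at 404 and 2118 CPM, Cxcr6 at 48.5 and 212 CPM, Isg15 at 16.2 and 82.8 CPM and Ly6c2 at 68.7 and 543 CPM. These Ccr7-high cells with low Gzmb were also low in Klf2, a factor of quiescent recirculating cells, at 148 and 496 CPM. The other lowest genes were Ifi206, Arl4c, Rtp4, Gimap4 and Vim. The treated library had 7 such cells after the same removal and was not compared.

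Against the Tcf7-negative Pdcd1+ cells, the Tcf7+ Pdcd1+ cells had more transcripts of homing and quiescence and fewer of killing and terminal exhaustion in both libraries. In the untreated library 273 of 4941 genes (5.53%) were at least 1.5-fold higher and 448 (9.07%) lower, and in the treated library 198 of 5244 (3.78%) were higher and 509 (9.71%) lower. Within each library the groups were sequenced together, so these contrasts do not rest on the difference between libraries. The median gene was at a log2 ratio of -0.05 and -0.08. Higher genes made up 37.9% and 28.0% of those called, 45.5% and 44.0% under median of ratios scaling, and 52.4% and 39.9% with ribosomal and mitochondrial UMIs left out of the totals. The 10 highest untreated genes also held the macrophage markers Lyz2 and Apoe, the dendritic cell marker Fscn1, and Cd63 and Lgmn. A single cell held 90.9% of the untreated Lyz2 and 45.4% of the Apoe UMIs. The 10 highest treated genes held Spp1 and Fcer1g. Without droplets with transcripts of other cells, 226 genes were higher and 495 lower (untreated), and 191 and 522 (treated).

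Of the stem-like list, 19 of 22 genes passed the filter in the untreated library and 13 were higher and 1 lower, with a median log2 ratio of 1.25. In the treated library 13 passed, of which 7 were higher and 1 lower, with a median of 0.66. Gzmk was the lower gene in both. A gene that passed only through the group where it was high had to differ, and genes chosen to go with Tcf7 are no independent evidence of the state. Lef1, the partner factor of TCF-1, was at 101 and 83.0 CPM against 12.2 and 11.4 CPM, 8.31-fold (5.78 to 12.2) and 7.30-fold (5.27 to 9.99) higher. Id3, an inhibitor of E proteins linked to stem-like cells, was at 35.7 and 28.2 CPM against 4.28 and 2.00 CPM, and did not pass the filter in the treated library. Il7r, the receptor for the survival cytokine interleukin-7, was at 190 and 87.5 CPM against 79.9 and 40.3 CPM, 2.38-fold (2.00 to 2.83) and 2.17-fold (1.63 to 2.84) higher. Bach2, a repressor of effector programmes, was at 56.4 and 63.7 CPM against 17.8 and 28.1 CPM. Eomes differed by less than 1.5-fold, at 58.4 and 47.4 CPM against 73.0 and 64.1 CPM.

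The list of naive and recirculation genes was higher in 11 of 16 and 9 of 14 genes tested and lower in none, with median log2 ratios of 1.16 and 0.87. Lef1, Bach2, Il7r and Satb1 were counted as higher in both this list and the stem-like list, so the lists are not separate evidence. S1pr1, the receptor for exit into blood, was at 40.9 and 77.1 CPM against 6.91 and 2.23 CPM. Klf2, which drives S1pr1, was at 373 and 101 CPM against 78.0 and 16.9 CPM, 4.78-fold (4.10 to 5.59) and 5.96-fold (4.47 to 7.86) higher. Klf3, a related factor, was at 61.6 and 116 CPM against 9.21 and 6.76 CPM. Ccr7 was at 879 and 345 CPM against 448 and 22.7 CPM, 1.96-fold (1.82 to 2.12) and 15.2-fold (12.8 to 18.2) higher, and the difference in log2 ratio between the libraries, 0.97 and 3.93, was not tested. Without the droplets of highest doublet score, the treated count was 4 of 11 genes with a median of 0.45.

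Of the terminal exhaustion list, 15 of 20 genes tested were lower in the untreated library, with a median log2 ratio of -1.22. In the treated library 12 of 17 were lower and 1, Zeb2, was higher at 56.3 against 33.7 CPM, with a median of -0.79. A single cell held 31.6% of the treated Zeb2 UMIs. Havcr2, which encodes the inhibitory receptor TIM-3, was at 19.5 and 22.2 CPM against 92.1 and 51.0 CPM, 4.74-fold (3.24 to 7.15) and 2.29-fold (1.38 to 4.12) lower. Entpd1, the ectoenzyme CD39, was at 11 and 5.93 CPM against 50.7 and 41.2 CPM. Cd38, another ectoenzyme, was at 18.8 and 4.45 CPM against 33.6 and 37.0 CPM. Havcr2, Entpd1 and Cd38 did not reach the filter in the Tcf7+ Pdcd1+ cells of either library. These genes passed only through the comparison cells, where they were high, so their lower level follows in part from the filter. All are among the genes counted as lower in both libraries. Cxcr6, a receptor of tissue-retained T cells, was at 152 and 136 CPM against 422 and 277 CPM. Of the inhibitory receptors, Lag3 was at 243 and 184 CPM against 373 and 279 CPM, 1.54-fold (1.37 to 1.73) and 1.52-fold (1.27 to 1.83) lower. Ctla4 was at 218 and 182 CPM against 391 and 256 CPM, 1.80-fold (1.59 to 2.03) and 1.40-fold (1.17 to 1.70) lower. The inhibitory receptor list had 4 of 9 and 2 of 8 genes lower and none higher, with Havcr2 counted both there and in the terminal exhaustion list. Tox was at 101 and 144 CPM against 135 and 273 CPM, 1.35-fold (1.12 to 1.63) and 1.90-fold (1.55 to 2.35) lower.

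Killing genes were lower in 10 of 15 and 9 of 14 genes tested, with medians of -1.0 and -0.77. Prf1, Gzmb and Nkg7 were counted as lower in both this list and the terminal exhaustion list. Prf1, the pore-forming perforin, was at 90.8 and 54.9 CPM against 649 and 102 CPM, 7.15-fold (6.02 to 8.55) and 1.85-fold (1.34 to 2.64) lower. Gzmb, the granzyme that starts target cell death, was at 196 and 211 CPM against 1052 and 381 CPM, 5.37-fold (4.77 to 6.07) and 1.81-fold (1.53 to 2.16) lower. Gzmf was at 82.4 and 90.4 CPM against 1351 and 211 CPM. Fasl, the death ligand, was at 31.8 and 63.7 CPM against 89.5 and 143 CPM. The gap was wider in the untreated library for these granzymes and Prf1, where the Tcf7-negative cells were high, and the difference between libraries was not tested. Gzma was the exception of the list in the treated library, at 113 against 13.6 CPM, but 97.4% of its UMIs came from 1 cell. Hbb-bs, Hba-a1, Hba-a2 and Hbb-bt, genes of red blood cells, were also among the 10 lowest of the untreated contrast, but 1 comparison cell held 99.3% of the erythroid marker UMIs, and that list was at 0 CPM in the Tcf7+ Pdcd1+ cells of both libraries.

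Chemokines divided. Xcl1, which attracts cross-presenting dendritic cells, was at 222 and 126 CPM against 49.0 and 13.3 CPM, 4.54-fold (3.73 to 5.54) and 9.48-fold (7.22 to 12.4) higher, and was detected in 33.6% and 23.9% of cells against 6.12% and 3.87%. In the non-T droplets Xcl1 was detected in 1.02% and 0. A single cell held 14.6% of its untreated and 23.5% of its treated UMIs. Over the settings tried, its log2 ratio ran from 0.49 to 2.45 (untreated) and from 2.59 to 3.86 (treated), so the lowest untreated value was under the fold used. Ccl4 was at 24.0 and 26.7 CPM against 58.2 and 93.6 CPM. Fos and Cd69, genes that respond early to stimulation and to tissue dissociation, were higher in the Tcf7+ Pdcd1+ cells. Fos was at 136 and 78.6 CPM against 47.4 and 21.2 CPM, and Cd69 at 162 and 102 CPM against 53.0 and 19.3 CPM. The Nr4a genes, induced by antigen receptor signals, differed by less than 1.5-fold: Nr4a2 was at 320 and 903 CPM against 443 and 1164 CPM, and Nr4a3 at 78.5 and 549 CPM against 65.5 and 628 CPM.

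**Figure D3:**
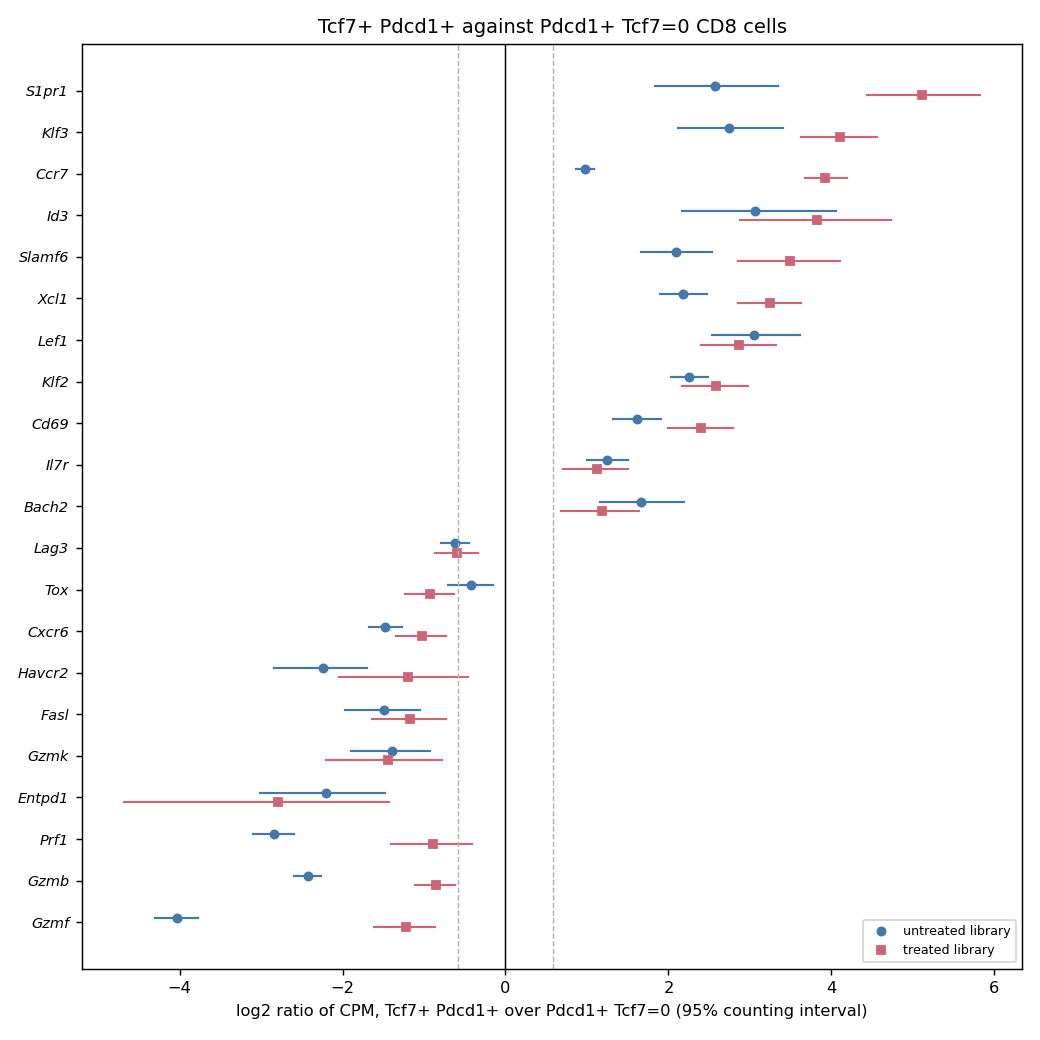
Log2 ratio of CPM (horizontal axis) in Tcf7+ Pdcd1+ over Tcf7-negative Pdcd1+ CD8 cells for 21 genes in the untreated (blue circles) and treated (red squares) library; lines are exact 95% counting intervals and dashed lines mark 1.5-fold. The homing and stem-like genes lie right of 0 in both libraries, with Lef1 at 3.05 and 2.87 and Ccr7 at 0.97 and 3.93, and Gzmk lies left at -1.39 and -1.44.

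Against the Pdcd1-negative Tcf7+ cells the direction turned for most of the same genes. In the untreated library 873 of 4672 genes (18.7%) were higher and 334 (7.15%) lower, and in the treated library 1097 of 4637 (23.7%) were higher and 387 (8.35%) lower. The median gene was at a log2 ratio of 0.17 and 0.21, so small positive ratios have to be read against that shift. Higher genes made up 72.3% and 73.9% of those called, but 53.4% and 48.0% under median of ratios scaling and 46.8% and 41.3% with ribosomal and mitochondrial UMIs left out of the totals. Of the inhibitory receptor list, 5 of 7 and 5 of 6 genes tested were higher, with median log2 ratios of 3.16 and 2.24. The cells were chosen for Pdcd1, itself an inhibitory receptor gene, so genes that go with it are no independent evidence of the state. Lag3 was at 243 and 184 CPM against 3.98 and 9.21 CPM, 61.1-fold (45.4 to 83.8) and 20-fold (12.7 to 32.7) higher. It was under 20 CPM in the comparison cells, passed the filter only through the group where it was high, and so had to differ. Ctla4 was 12.4-fold (10.5 to 14.8) and 3.93-fold (3.02 to 5.11) higher. Tox was at 101 and 144 CPM against 30.8 and 32.4 CPM, 3.26-fold (2.69 to 3.94) and 4.44-fold (3.27 to 6.03) higher. Cxcr6 was at 152 and 136 CPM against 29.9 and 13.6 CPM. Genes of glycolysis were higher in 12 of 14 and 7 of 14 genes tested. The naive and recirculation list was lower in 14 of 18 and 9 of 17 genes: Lef1 was 3.36-fold (2.86 to 3.97) and 3.43-fold (2.61 to 4.58) lower, and Klf2 3.49-fold (3.21 to 3.79) and 3.51-fold (2.74 to 4.57) lower.

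Most genes that separated the comparison groups thus had intermediate levels. Of the genes at least 2-fold apart between the Tcf7-negative Pdcd1+ and the Pdcd1-negative Tcf7+ cells of the untreated library, the Tcf7+ Pdcd1+ level lay between them for 713 of 807 (88.4%) that were higher with Pdcd1 and 288 of 321 (89.7%) that were higher with Tcf7. In the treated library it lay between for 787 of 948 (83.0%) and 237 of 273 (86.8%). A pool of mixed cells, and droplets with a pair of cells, also give intermediate levels. Without the droplets of highest doublet score, the shares over both directions were 84.9% and 71.1%, and the median depth of the remaining 105 and 46 cells was 9440 and 6623 UMIs.

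Few genes lay well above both comparison groups. This comparison and that of intermediate levels were added after the values were seen. Genes were tested here if the Tcf7+ Pdcd1+ cells themselves reached the filter. At least 1.5-fold above both comparison groups were 79 of 3585 genes untreated (2.20%) and 23 of 1934 treated (1.19%). Of 1877 genes tested in both libraries, 7 (0.373%) were at least 1.5-fold above both comparison groups in both. Xcl1 had the widest margin in the untreated library among those not carried by 1 cell, at 222 CPM against 49.0 and 50.7 CPM. Ramp3, a partner protein of calcitonin-family receptors, was at 109 and 145 CPM, against 48.7 and 29.4 CPM in the Tcf7-negative and 8.12 and 27.6 CPM in the Pdcd1-negative cells. Itgb1, an integrin subunit, was at 203 and 261 CPM and Zmynd8, a chromatin reader, at 80.4 and 101 CPM. Another 2 of the genes drew between 45.4% and 90.9% of their UMIs from 1 cell.

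Between the libraries, 757 of 3642 genes (20.8%) were higher and 634 (17.4%) lower in the treated Tcf7+ Pdcd1+ cells, and the median gene was at -0.01. Higher genes made up 54.4% of those called, and 44.3% when ribosomal and mitochondrial UMIs were left out of the totals. The genes called in the cyclic AMP list were all higher and those called in the glycolysis list all lower, while the recirculation and stem-like lists went both ways. A gene given only for the Tcf7+ Pdcd1+ cells is not shown to be particular to them. Values in the comparison groups are set beside many of the lists and some genes, since each library carries its own batch. Their own counts were 1871 (32.8%) higher and 888 (15.5%) lower of 5711 genes in the Tcf7-negative Pdcd1+ cells and 1533 (29.4%) and 1136 (21.8%) of 5211 in the Pdcd1-negative Tcf7+ cells.

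Genes of the cyclic AMP response were mostly higher. Of 10 genes tested, 7 were higher and none lower, with a median log2 ratio of 1.18, and 0.94 without the droplets of highest doublet score. The counts were 9 of 12 in the Tcf7-negative Pdcd1+ cells and 9 of 11 in the Pdcd1-negative Tcf7+ cells. Crem, a cyclic AMP-responsive transcription factor, was at 151 CPM in untreated and 784 CPM in treated cells, 5.19-fold (4.44 to 6.08) higher. In the comparison groups Crem went from 260 to 1219 CPM and from 36.1 to 406 CPM. Fosl2, an AP-1 subunit, was at 151 and 648 CPM, 4.29-fold (3.65 to 5.05) higher. Pde4d, which degrades cyclic AMP, was at 50.6 and 178 CPM, 3.52-fold (2.62 to 4.74) higher, and Sik1, a cyclic AMP-induced kinase, at 73.9 and 184 CPM, 2.49-fold (1.91 to 3.24) higher.

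Of the list of exhaustion-linked transcription factors, 6 of 13 genes tested were higher and none lower, with a median of 0.52. Nr4a3 was at 78.5 and 549 CPM, 6.99-fold (5.68 to 8.66) higher. A single cell held 6.61% of its untreated and 3.78% of its treated UMIs. It was detected in 39.1% of untreated and 91.5% of treated cells, against 33.0% and 41.2% of the non-T droplets, so the untreated share was near that of cells of other types. Nr4a3 was also higher in the Tcf7-negative Pdcd1+ cells, 65.5 and 628 CPM, and in the Pdcd1-negative Tcf7+ cells, 25.9 and 373 CPM. Nr4a2 was at 320 and 903 CPM, 2.82-fold (2.5 to 3.18) higher, and Nr4a1 at 77.8 and 172 CPM, 2.21-fold (1.70 to 2.88) higher. Tox was at 101 and 144 CPM, 1.43-fold (1.10 to 1.86) higher, which was under the fold used. None of the 7 inhibitory receptor genes tested was called, with a median of -0.09, and 2 were lower without the droplets of highest doublet score. Lag3 was at 243 and 184 CPM and Ctla4 at 218 and 182 CPM.

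The genes with the highest ratios under the naming rule also held Irs2, Hexim1, Egr1, Sult2b1 and Ski. In the untreated cells all of these were under the UMI minimum of the filter. They passed it only through the treated cells, where they were high, and so had to differ. Irs2, an adaptor of insulin receptor signalling, was at 18.2 and 139 CPM, 7.68-fold (4.99 to 12.2) higher. Hexim1, an inhibitor of the elongation factor P-TEFb, was at 27.9 and 178 CPM, 6.38-fold (4.47 to 9.26) higher, and at 25.3 and 197 CPM and at 31.8 and 228 CPM in the comparison groups. Ski, a repressor of TGF-beta signalling, was at 19.5 and 130 CPM, 6.71-fold (4.39 to 10.5) higher. Sult2b1, a steroid sulfotransferase, was at 18.8 and 151 CPM. Gzma and Spp1 also ranked there, but a single treated cell held 97.4% and 98.5% of their UMIs.

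The list of genes induced by ERK, the kinase under MEK, had 6 of 17 members tested, of which 4 were higher and 1 lower, with a median of 1.17. Egr1, an immediate early factor, was at 21.4 and 139 CPM, 6.51-fold (4.34 to 10.0) higher, Dusp5, a nuclear ERK phosphatase, at 98.6 and 325 CPM, 3.29-fold (2.67 to 4.08) higher, and Phlda1 at 42.1 and 138 CPM, 3.27-fold (2.36 to 4.56) higher. Dusp6, the cytoplasmic ERK phosphatase, went the other way at 29.8 and 11.9 CPM, 2.52-fold (1.18 to 6.17) lower, below the filter, and was at 32.2 and 12.5 CPM in the Tcf7-negative Pdcd1+ cells. Dusp4 was at 43.4 and 26.7 CPM. Egr1 passed the filter only through the treated cells, as stated above. In the Tcf7-negative Pdcd1+ cells 5 of 8 genes of the list were higher and 2 lower. In the Pdcd1-negative Tcf7+ cells 4 of 6 were higher and 1 lower. Egr1, Dusp5 and Phlda1 were among the higher genes in both. Without the droplets of highest doublet score, 3 members of the list were tested and the median was -0.40.

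Receptors for cytokines and costimulation went both ways. Of 11 cytokine receptor genes tested, 6 were higher and 3 lower. Il21r was at 164 and 463 CPM, 2.82-fold (2.38 to 3.34) higher, Il2rb, the shared receptor chain for interleukin-2 and interleukin-15, at 340 and 833 CPM, 2.45-fold (2.17 to 2.76) higher, and Tgfbr2 at 60.3 and 139 CPM. Il7r was lower, at 190 and 87.5 CPM, 2.17-fold (1.64 to 2.92). In both comparison groups Il21r, Il2rb and Tgfbr2 were also called higher and Il7r lower. Icos, a costimulatory receptor, was at 93.4 and 292 CPM, 3.13-fold (2.51 to 3.90) higher, and Cd44, an activation and memory marker, at 68.7 and 147 CPM, 2.14-fold (1.61 to 2.84) higher. These were the 2 higher genes of 11 costimulation genes tested, and 3 were lower, with a median of -0.11. The lower genes were Tnfrsf4, which encodes OX40, at 388 and 138 CPM, Tnfrsf18 and Cd69. Tnfrsf18, which encodes GITR, was at 341 and 157 CPM and Cd69 at 162 and 102 CPM. Icos and Cd44 were also called higher, and Cd69 lower, in both comparison groups. Tnfrsf4 and Tnfrsf18 were also called lower in the Tcf7-negative Pdcd1+ cells.

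Recirculation genes divided. Of 16 tested, 5 were higher and 7 lower in treated cells, with a median of -0.11. Klf2 stood at 373 and 101 CPM, 3.70-fold (2.87 to 4.83) lower, and was lower in both comparison groups, from 78.0 to 16.9 CPM and from 1299 to 354 CPM. Ccr7 was at 879 and 345 CPM, 2.54-fold (2.21 to 2.94) lower, and went from 448 to 22.7 CPM in the Tcf7-negative Pdcd1+ cells and from 324 to 371 CPM in the Pdcd1-negative Tcf7+ cells. S1pr1, at 40.9 and 77.1 CPM, was 1.89-fold (1.28 to 2.77) higher although Klf2 was lower, and Klf3, at 61.6 and 116 CPM, was 1.88-fold (1.37 to 2.56) higher.

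Of 18 stem-like genes tested, 3 were higher, Icos, Cd200 and Satb1, and 6 were lower, with a median of -0.29, which was 0.12 without the droplets of highest doublet score. Slamf6 was at 92.7 and 53.4 CPM, 1.74-fold (1.2 to 2.58) lower, but the log2 ratio was 0.16 among cells with at least 2 UMIs of both Tcf7 and Pdcd1. Xcl1 was at 222 and 126 CPM, 1.77-fold (1.39 to 2.27) lower, and Bcl2, a survival factor, at 157 and 99.3 CPM, 1.58-fold (1.2 to 2.10) lower. Lef1, at 101 and 83.0 CPM, and Bach2, at 56.4 and 63.7 CPM, differed by less than 1.5-fold. Gzmk was at 28.5 and 26.7 CPM, a ratio of 0.935 (0.509 to 1.65). In the Tcf7-negative Pdcd1+ cells 4 of 14 stem-like genes were higher and 5 lower. In the Pdcd1-negative Tcf7+ cells 4 of 19 were higher and 6 lower.

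Glycolysis genes were lower in 11 of 14 tested and higher in none, with a median of -0.92 and of -0.78 without the droplets of highest doublet score. Aldoa, a glycolytic aldolase, was at 814 and 289 CPM, 2.82-fold (2.42 to 3.29) lower, Pgk1 at 472 and 239 CPM, 1.98-fold (1.67 to 2.36) lower, and Gapdh at 2881 and 1588 CPM, 1.81-fold (1.70 to 1.94) lower. In the Tcf7-negative Pdcd1+ cells 14 of 16 glycolysis genes were lower, and in the Pdcd1-negative Tcf7+ cells 4 of 14 were lower and 2 higher. Of 9 interferon-induced genes tested, 4 were lower and 1, Isg15, was higher, at 64.8 and 116 CPM. Without the droplets of highest doublet score none was higher and 4 were lower. In the comparison groups 8 of 12 and 10 of 14 interferon-induced genes were lower and none was higher. Of the killing genes, 7 of 15 and 5 of 11 were lower in these groups, and 2 were higher in each. Of 12 killing genes in the Tcf7+ Pdcd1+ cells, 4 were lower and 1 was higher. Prf1 was at 90.8 and 54.9 CPM, 1.66-fold (1.14 to 2.45) lower, whereas Gzmb, at 196 and 211 CPM, had a ratio of 1.07 (0.874 to 1.32).

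Markers of dendritic cells moved with the lower genes. Their summed level over 10 genes was 1480 CPM in untreated and 157 CPM in treated cells, with Flt3, Xcr1, Clec9a and Cd209a at 0 in treated cells, and a single untreated cell held 32.5% of these UMIs. The same sum went from 1494 to 448 CPM in the Tcf7-negative Pdcd1+ cells and from 1137 to 58.8 CPM in the Pdcd1-negative Tcf7+ cells. H2-Aa, H2-Ab1, H2-Eb1, Cd74 and Fscn1, all on that list, were among the lowest genes in the Tcf7+ Pdcd1+ cells. Cd74 was at 862 and 107 CPM. H2-Aa, H2-Ab1, H2-Eb1 and Cd74 were also called lower in both comparison groups. Cd83, which dendritic cells also express, was at 89.5 and 8.90 CPM, 10.1-fold (4.51 to 27.9) lower. The part of these transcripts in the other differences was not tested beyond leaving out the 10 and 5 droplets named above, after which 689 genes were higher and 579 lower.

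**Figure D4:**
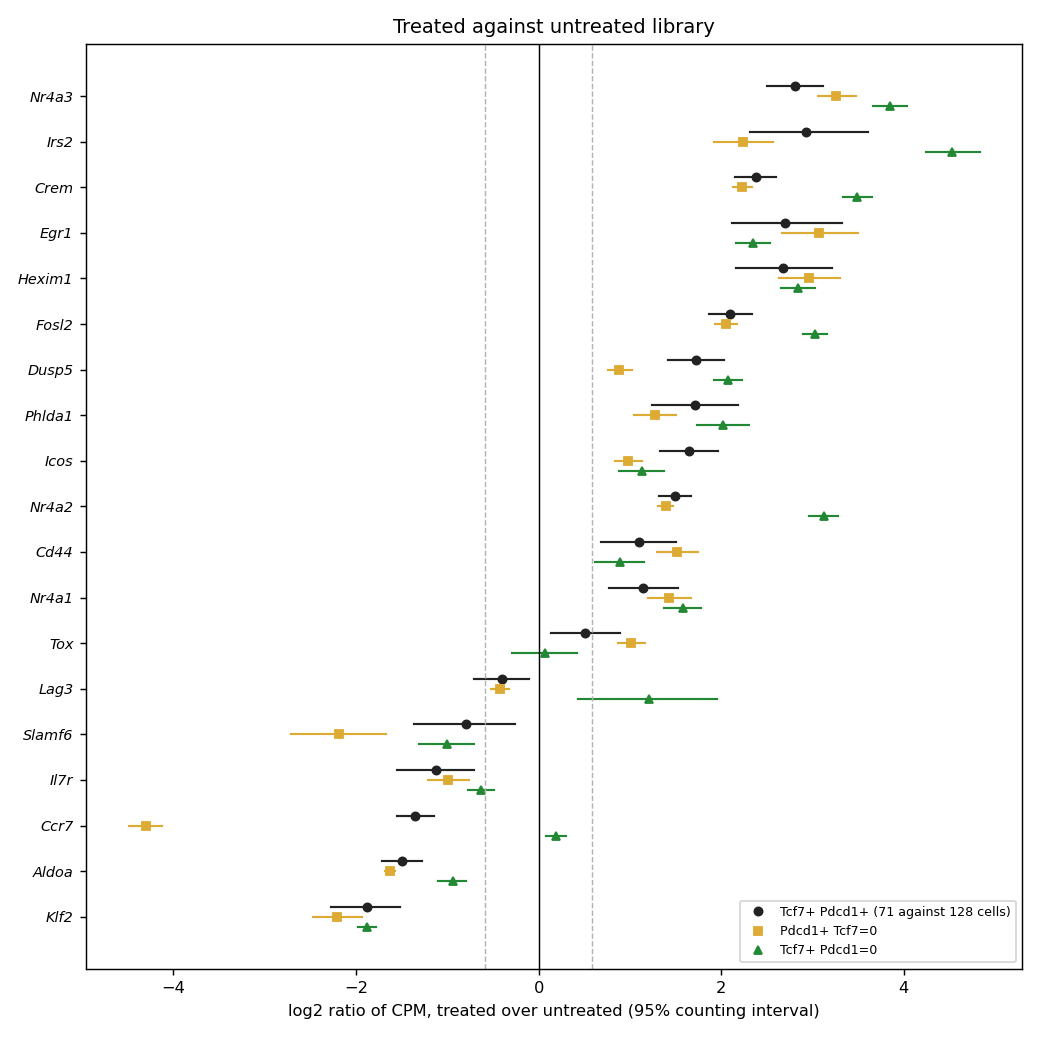
Log2 ratio of CPM, treated over untreated library (horizontal axis), for 19 genes in Tcf7+ Pdcd1+ cells (black circles), Tcf7-negative Pdcd1+ cells (yellow squares) and Pdcd1-negative Tcf7+ cells (green triangles); lines are exact 95% counting intervals and dashed lines mark 1.5-fold. Nr4a3 lies at 2.81, 3.26 and 3.85 and Klf2 at -1.89, -2.21 and -1.88, and Ccr7 at -1.35, -4.30 and 0.19.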

How the data were processed

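The authors deposited 1 table of natural log values, ln(1 + UMIs per 10000 of the cell), for 17390 cells and 15121 genes. The submitters' processing notes name Cell Ranger, Seurat and the build GRCh38, although the symbols are those of mouse, so no coordinates are given; versions and order are not given in the sources used here. Cells were assigned to libraries by the suffix of their names, and there were 0 columns of other samples. UMI counts were recovered from the deposited values: all 38204229 nonzero values were whole within 0.01. The libraries held 9312 cells with 95349992 UMIs and 8078 cells with 58318786 UMIs. The 492 and 644 genes at 0 throughout the untreated or the treated library were treated as not measured there, which left 13998.

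UMIs were summed per group and library and scaled to CPM. Ratios carry exact conditional binomial 95% intervals, levels Poisson intervals and shares Clopper-Pearson intervals. With 1 library per group there was no test. The cells and the 33 gene lists were chosen with earlier results of these data known. Genes named are the 12 highest and 12 lowest by the interval bound nearest 1 between libraries (10 against Tcf7-negative and 6 against Pdcd1-negative cells), and genes of the lists. Scrublet's automatic call marked 4 and 0 cells and was not used; an alternative removed about 5% of droplets with the highest scores. Scripts were tested on simulated data. Some results are not reported here. Software was scanpy 1.11.5 (Scrublet included), matplotlib 3.10.9, pandas 2.3.3, scikit-image 0.26.0, numpy 2.4.6 and scipy 1.17.1 under Python 3.11.15.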

Additional observations from a re-analysis of the deposited data

Results flagged for a closer look

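Several genes had log2 ratios of opposite sign in 2 groups under the same contrast. None of these differences was tested, since each group is 1 library.

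Against the Tcf7-negative Pdcd1+ cells, Gzma, a granzyme, was at -2.93 (untreated) and 3.05 (treated), and Spp1, which encodes the secreted protein osteopontin, at -0.76 and 3.84. A single treated Tcf7+ Pdcd1+ cell held 97.4% of the Gzma and 98.5% of the Spp1 UMIs. Between libraries, Gzma was at 3.98 in Tcf7+ Pdcd1+ cells and -2.00 in Tcf7-negative Pdcd1+ cells, and Spp1 at 3.18 and -1.42, with -5.03 in Pdcd1-negative Tcf7+ cells. Lyz2, a lysozyme of myeloid cells, was at -1.34 and 1.03 in the Pdcd1+ groups, and 1 cell held 90.9% of its untreated and 88.1% of its treated UMIs.

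The other 3 genes were less concentrated. Cdkn1a, an inhibitor of the cell cycle, was at 1.15 in Tcf7+ Pdcd1+ and -0.65 in Tcf7-negative Pdcd1+ cells, with 12.5% and 24.2% of its UMIs in 1 untreated and 1 treated cell. Isg15, an interferon-induced gene, was at 0.83 in Tcf7+ Pdcd1+ and -0.68 in Pdcd1-negative Tcf7+ cells. Without the droplets of highest doublet score no interferon-induced gene of the list was called higher in the Tcf7+ Pdcd1+ cells. Mt1, a metallothionein, was at 1.75 and -1.74 in the same groups, with 31.9% and 13.0% of its UMIs in 1 cell.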

How the results depend on the processing

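No paired analysis was possible because each group is 1 library, and for the same reason no replicate could be left out. The alternative without droplets holding transcripts of other cells was chosen after seeing the data. Of the gene ratios recomputed, 1948 were counted as unchanged, 289 as moved and 7 as turned. Unchanged ratios stayed within the counting interval of the main ratio, except that the deposited means were checked for a turn only. For list medians, judged by a fixed log2 margin and not by a counting interval, the numbers were 551, 55 and 1. Counts of genes past 1.5-fold changed in settings with fewer UMIs or another minimum, and did not follow the number of genes tested alone. Against Tcf7-negative Pdcd1+ cells of the treated library, 5244 genes were tested in the main setting and 5257 after thinning. Higher and lower genes there went from 198 and 509 to 542 and 1129. The deposited natural log means gave gene values only, and a comparison within a subset of the cells is not reported.

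The share of Tcf7+ Pdcd1+ cells was 1.23% untreated and 0.337% treated after thinning, 1.83% and 0.599% with 2 UMIs of both genes, 5.75% and 2.64% without the Ifng and cycling limits, and 1.06% treated without the highest Scrublet scores.

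Between libraries, higher and lower genes were 85 and 97 after thinning, 355 and 416 with 2 UMIs of both genes, 447 and 186 at a minimum of 100 CPM, 2150 and 1749 at 10 UMIs without a CPM minimum and 237 and 162 in cells of 3000 to 10000 UMIs. Higher genes were 503 without the highest Scrublet scores, and lower genes 1109 without the Ifng and cycling limits.

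Against Tcf7-negative Pdcd1+ cells, untreated, they were 44 and 229 after thinning, 66 and 122 at 100 CPM and 1177 and 1177 at 10 UMIs. Higher genes were 89 at 3000 to 10000 UMIs, and lower genes 257 without the Ifng and cycling limits and 803 with comparison cells freed of those limits. In the treated library they were 332 and 803 without the highest Scrublet scores, 542 and 1129 after thinning, 349 and 1053 with 2 UMIs of both genes, 67 and 84 at 100 CPM, 2225 and 1531 at 10 UMIs, and 367 and 841 at 3000 to 10000 UMIs. Lower genes were 333 without the Ifng and cycling limits.

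Against Pdcd1-negative Tcf7+ cells, untreated, they were 570 and 648 with totals free of ribosomal and mitochondrial genes, 298 and 71 at 100 CPM and 2710 and 1413 at 10 UMIs. Lower genes were 602 after thinning and 547 under median of ratios scaling, and higher genes 1403 without the Ifng and cycling limits. In the treated library they were 404 and 232 after thinning, 638 and 690 under median of ratios scaling, 540 and 769 with totals free of ribosomal and mitochondrial genes, 430 and 111 at 100 CPM and 2515 and 1028 at 10 UMIs.

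Gene ratios that turned are log2 values, and the cause was not tested. Between libraries they were Slamf6 at 0.16 with 2 UMIs of both genes, Cd200 at -0.0188 in the deposited means and Gzma at -1.35 in cells of 3000 to 10000 UMIs. The list of ERK-induced genes had a median of -0.40 without the highest Scrublet scores, with 3 genes tested. Against Tcf7-negative Pdcd1+ cells, untreated, Irs2 was at 0.42 after thinning and 0.00 at 3000 to 10000 UMIs. In the treated library Gzmc was at 0.05 after thinning and 0.97 without the Ifng and cycling limits.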

Other observations

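Cxcr5, a chemokine receptor of B cell follicles that some stem-like CD8 cells carry in chronic infection, was detected in 5 of 128 untreated (3.91%) and 2 of 71 treated cells (2.82%). In B cell and myeloid droplets without T cell transcripts the shares were 2.79% and 8.44%. Some of these droplets are of types known to express Cxcr5, so they give no background for it. Whether the T cells themselves carried Cxcr5 was not tested. Cxcr4, the receptor for a stromal chemokine, was at 93.4 CPM in untreated and 230 CPM in treated Tcf7+ Pdcd1+ cells, 2.46-fold (1.95 to 3.11) higher.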
